A study of Mus musculus with 4 samples.

Results

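The expression of 10 imprinted genes of growth control was followed in mouse cells derived from embryonic stem (ES) cells: Igf2, H19, Igf2r, Peg3, Mest, Cdkn1c, Grb10, Snrpn, Plagl1 and Dlk1. Their probe sets were taken where the array platform's annotation gives a probe set 1 of these symbols and no other. Of the 10 genes, 8 were found in this way, with 14 of the 12422 probe sets tested, and 4 of the 8 had a single probe set. H19 and Snrpn had no probe set annotated to them alone and were not analysed here.

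Single-colour oligonucleotide arrays were run on RNA of 2 Hemangioblast samples and 2 hCD4 samples, named as in the sample titles. Both groups derive from ES cells that carry a human CD4 reporter of Scl, a blood transcription factor whose gene is Tal1. The study text describes embryoid bodies grown for 2.75 days in serum, a sort of their Flk-1+Scl+ cells as hemangioblasts, and blast colonies, picked and pooled, that grew from replated embryoid body cells. The sample sources name hemangioblasts and hCD4 ES cells, while the study text names the populations hCD4 and Blast, so the labels leave unsettled whether an array holds sorted cells, colonies or undifferentiated cells. Whether replicate arrays stand for separate cultures is not stated, and every p-value reflects the spread of these 4 arrays, which may be technical. ES cells were kept on STO feeder fibroblasts before differentiation, per the study text. Kdr, which encodes Flk-1, was at 648 and 570.0 on the 2 Hemangioblast arrays, against 1625 and 2003 on the hCD4 arrays (limma adjusted p = 0.00158), and Tal1 at 391 and 333 against 597 and 696 (adjusted p = 0.0513). The genes of the Flk-1+Scl+ sort were lower on both arrays titled Hemangioblast than on either hCD4 array, past the threshold for Kdr alone. Pou5f1, a pluripotency factor, was at 104 and 144 against 1526 and 585 (adjusted p = 0.00663), with the hCD4 arrays far apart. Its other probe set was dim and went the other way, at 76 and 34.1 against 21.9 and 16.9 (adjusted p = 0.293).

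An imprinted gene is expressed mainly from the copy inherited from one parent, in many cases because DNA methylation laid down in the egg or the sperm marks one copy. Many such genes set the growth of the embryo and placenta: paternally expressed ones such as Igf2, Peg3 and Mest tend to promote it, and maternally expressed ones such as Igf2r, Grb10, Cdkn1c and H19 tend to restrain it. The arrays measured total RNA and do not tell the 2 parental copies apart. In bulk RNA, fewer cells that express a gene and less RNA per cell cannot be told apart.

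Plagl1, Dlk1 and Peg3 are the members with a probe set past the threshold in the comparison of the groups. Their promoter windows are shown because each lies in a domain where methylation of CpG sites distinguishes the parental copies, and capitals mark every CG. Each window runs from 250 bases before to 50 bases after an annotated start, 5′ to 3′ on the gene's strand, and comes from RefSeq on GRCm38.p6. The Plagl1 window is chr10:13090582-13090881 (plus strand), that of Peg3 chr7:6730370-6730669 (minus strand) and that of Dlk1 chr12:109452573-109452872 (plus strand).
Plagl1: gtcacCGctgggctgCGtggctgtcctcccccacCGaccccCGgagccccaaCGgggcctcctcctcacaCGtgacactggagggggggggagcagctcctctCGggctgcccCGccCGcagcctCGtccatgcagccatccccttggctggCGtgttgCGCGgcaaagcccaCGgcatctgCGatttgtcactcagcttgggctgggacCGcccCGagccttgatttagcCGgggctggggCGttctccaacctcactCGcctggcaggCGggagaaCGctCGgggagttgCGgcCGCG
Peg3: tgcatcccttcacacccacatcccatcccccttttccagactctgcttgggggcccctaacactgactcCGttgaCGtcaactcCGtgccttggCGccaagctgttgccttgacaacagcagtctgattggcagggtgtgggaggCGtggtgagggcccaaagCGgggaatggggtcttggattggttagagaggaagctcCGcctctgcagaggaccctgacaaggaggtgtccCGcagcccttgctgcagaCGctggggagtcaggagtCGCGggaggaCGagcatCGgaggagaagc
Dlk1: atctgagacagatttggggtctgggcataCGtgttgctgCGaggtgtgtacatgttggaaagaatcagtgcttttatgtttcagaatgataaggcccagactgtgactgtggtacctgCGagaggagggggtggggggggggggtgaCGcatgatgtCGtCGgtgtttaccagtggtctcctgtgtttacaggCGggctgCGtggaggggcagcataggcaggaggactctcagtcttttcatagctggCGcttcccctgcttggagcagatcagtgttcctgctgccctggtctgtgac

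The Plagl1 window holds 26 CG dinucleotides, more than 83.1% of the 32851 windows of this length in the table. The Peg3 window holds 13 (more than 62.1%) and the Dlk1 window 9 (more than 54.2%). A set of 4 motifs was searched on both strands. GGGGCCCC is a palindrome bound by the zinc finger protein that Plagl1 encodes, and TGACGTCA is the cAMP response element. The core of the GC box was searched as CCGCCC. The TATA box was searched as TATAAA. Peg3 had GGGGCCCC once, at bases 50 to 57 of its window, and TGACGTCA once, at bases 73 to 80, and neither overlapped another match. Of all windows, 1.08% hold GGGGCCCC and 1.79% hold TGACGTCA. Plagl1 had CCGCCC 2 times, a motif found in 35.7% of all windows. Dlk1 had none of the 4, and TATAAA, found in 13.6% of all windows, was in none of the 3. These are matches of letters, and neither methylation nor binding was measured. The Peg3 window overlaps that of Usp29, a paternally expressed gene on the opposite strand, by 263 bases. Among the other members, the window of Igf2r holds 34 CG dinucleotides, the 2 windows of Grb10 hold 45 and 9, the 3 of Mest 8 to 17 and the 4 of Igf2 2 to 24.

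Between the groups, Plagl1 and Dlk1 rose on the Hemangioblast arrays, Peg3 was lower by all of its probe sets and fell past the threshold by 1 of 3, and the other 5 measured genes did not pass. Intensities are given after each array was scaled to one trimmed mean. Changes are Hemangioblast minus hCD4 in log2(scaled intensity + 16), and a call is an adjusted p under 0.05 in limma over all 12422 probe sets. Of the 14 member probe sets, 2 were called higher and 1 lower. Over all probe sets, 2.91% were called higher and 1.56% lower, or 4.48% in either direction (362 higher and 194 lower, against 222 higher and 50 lower without scaling). Without hCD4 replicate 1 or without hCD4 replicate 2, 1 member probe set was called, of 268 and 219 called over all. The member probe sets had a median log2 change of -0.09, against 0.04 over all probe sets.

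**Figure D1:**
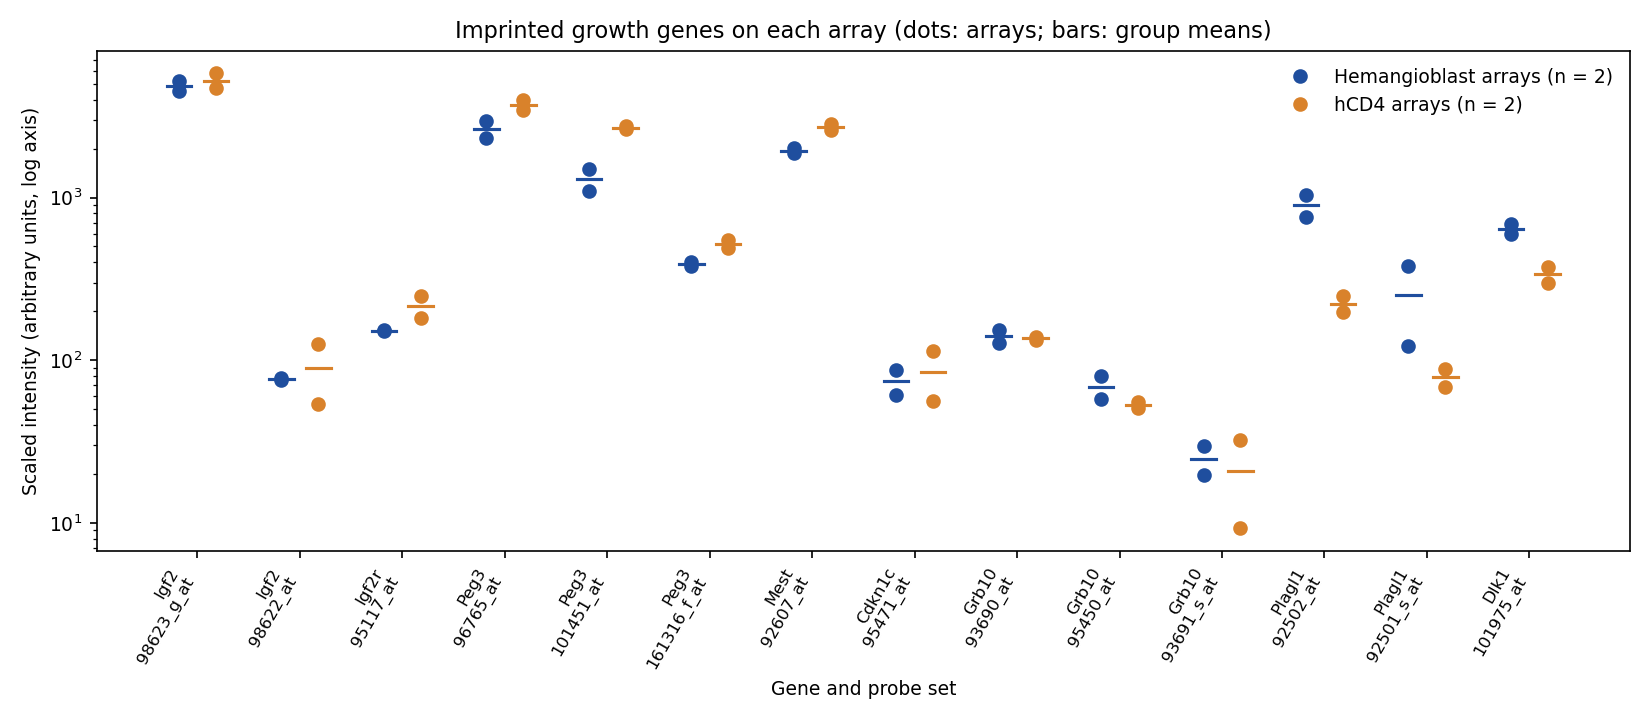
Scaled intensity (arbitrary units, log axis) of the 14 probe sets on each array, with Hemangioblast arrays in blue and hCD4 arrays in orange; dots are arrays and bars are the means of 2. Plagl1 and Dlk1 lie higher and Peg3 lower on both Hemangioblast arrays. Heights of different probe sets are not comparable with each other.

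Plagl1 encodes Zac1, a zinc finger transcription factor that halts the cell cycle and is known to regulate other imprinted genes. By the probe set 92502_at it was at 759 and 1038 on the 2 Hemangioblast arrays, against 249 and 197 on the hCD4 arrays. Both Hemangioblast arrays lay well above both hCD4 arrays. The means were 899 ± 197 and 223 ± 36.7 (SD, n = 2 each), a 3.8-fold rise (log2 change 1.93, SE 0.219, adjusted p = 0.00205). This was the single member probe set that differed at least 2-fold in all 4 pairings of a Hemangioblast with an hCD4 array, as did 2.89% of all probe sets (2.29% higher and 0.604% lower). The adjusted p stayed below the threshold whichever array was left out, with 0.0226 as the highest value. The second probe set, 92501_s_at, whose suffix marks probes that can match more than 1 transcript, was at 122 and 381 against 88.1 and 68.8. Its groups did not overlap either, but the 2 Hemangioblast arrays differed 3.13-fold and it did not pass (log2 change 1.32, SE 0.468, adjusted p = 0.196). Its change depended on the Hemangioblast array kept: it was 2.08 without Hemangioblast replicate 1 (adjusted p = 0.0217) and 0.55 without Hemangioblast replicate 2 (adjusted p = 0.675).

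Dlk1 encodes a transmembrane protein of the Delta-like family that is shed as a soluble factor and is known to mark fetal progenitors and hepatoblasts. It was at 597 and 692 on the 2 Hemangioblast arrays, against 376 and 297 on the hCD4 arrays. The groups were apart, and each group's arrays lay close. The means were 645 ± 67.5 and 336 ± 55.9 (SD, n = 2 each), a 1.88-fold rise (log2 change 0.91, SE 0.196, adjusted p = 0.039). The call rested on all 4 arrays: with 1 array left out the adjusted p ran from 0.0572 to 0.255. It was also lost with arrays scaled to their medians (0.0668), without scaling (0.123) and with a variance model that ignores intensity (0.158), while the change stayed between 0.75 and 1.08.

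Peg3 encodes a large zinc finger protein that is paternally expressed and known for roles in fetal growth and cell survival. By 101451_at it was at 1091 and 1501 on the 2 Hemangioblast arrays, against 2766 and 2621 on the hCD4 arrays. The means were 1296 ± 290.4 and 2694 ± 103 (SD, n = 2 each), a log2 change of -1.06 that passed the test (SE 0.177, adjusted p = 0.014). Without hCD4 replicate 1 the adjusted p was 0.118, and without hCD4 replicate 2 it was 0.108. By 96765_at, its brightest probe set, Peg3 was at 2952 and 2314 against 3966 and 3455 (log2 change -0.50, SE 0.166, adjusted p = 0.162). That change was -0.67 without Hemangioblast replicate 1 (adjusted p = 0.0469) and -0.32 without Hemangioblast replicate 2 (adjusted p = 0.396). By 161316_f_at, whose suffix marks a probe set shared by a sequence family, it was at 404 and 378 against 550.0 and 490.4 (log2 change -0.39, SE 0.179, adjusted p = 0.33). All 3 probe sets were lower on both Hemangioblast arrays than on either hCD4 array, but their changes ranged from -1.06 to -0.39. With the log2 values of the 3 averaged before the fit, an alternative chosen after seeing the data, the change was -0.65 (SE 0.139, adjusted p = 0.0427).

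**Figure D2:**
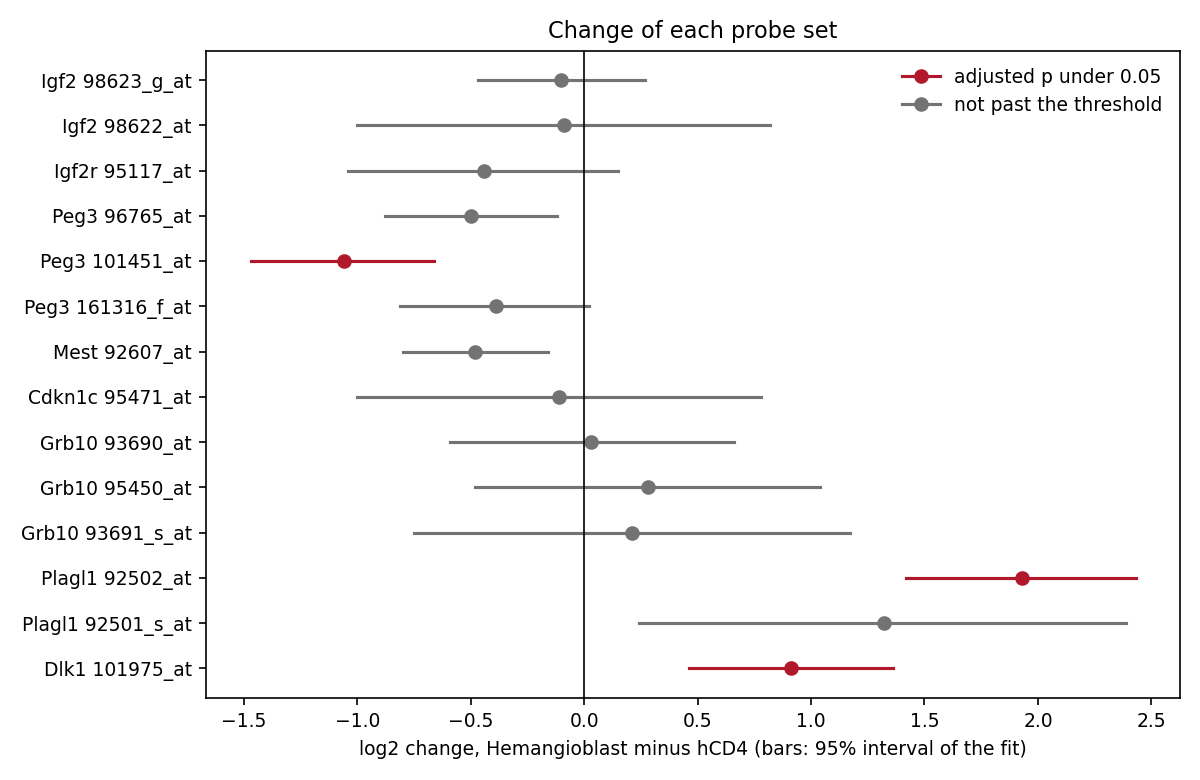
Log2 change, Hemangioblast minus hCD4, of each member probe set, with the 95% interval of the fit as bars and probe sets past an adjusted p of 0.05 in red. Plagl1 (1.93) and Dlk1 (0.91) lie right of 0 and Peg3 by 101451_at (-1.06) left of it.

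Mest encodes an enzyme of the hydrolase fold family and is a paternally expressed gene of mesoderm. It was at 2021 and 1867 on the 2 Hemangioblast arrays, against 2597 and 2840.0 on the hCD4 arrays. The groups did not overlap and the arrays of each group lay within 1.09-fold of each other. The mean was 1944 ± 109 against 2718 ± 172 (SD, n = 2 each), a log2 change of -0.48 (SE 0.141, unadjusted p = 0.00885 from limma) that did not pass after adjustment (adjusted p = 0.114). The 95% interval of the change ran from -0.80 to -0.16.

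Igf2 encodes insulin-like growth factor 2, the main fetal growth factor of this family, and had a bright and a dim probe set. By 98623_g_at it was at 4538 and 5221 on the 2 Hemangioblast arrays, against 4685 and 5787 on the hCD4 arrays, and the groups overlapped. The means were 4879 ± 483 and 5236 ± 779 (SD, n = 2 each; log2 change -0.10, SE 0.161, adjusted p = 0.86), with a 95% interval from -0.47 to 0.27, so a 2-fold change in either direction lay outside it. By the second probe set, 98622_at, Igf2 was at 75.9 and 78.1 against 53.5 and 125 (log2 change -0.09, SE 0.395, adjusted p = 0.959). Its 2 hCD4 arrays differed 2.33-fold, and its interval, from -1.0 to 0.82, was wider. The direction of neither probe set held when 1 array was left out.

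Igf2r encodes the receptor that carries IGF2, and enzymes tagged with mannose 6-phosphate, to the lysosome. It was at 150.2 and 153 on the 2 Hemangioblast arrays, against 247 and 182 on the hCD4 arrays. Both Hemangioblast arrays were lower, but the 2 hCD4 arrays differed 1.36-fold and the change did not pass (log2 change -0.44, SE 0.26, adjusted p = 0.483, interval -1.04 to 0.15).

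Grb10 encodes an adaptor that binds the insulin and IGF1 receptors and dampens their signal. By 93690_at it was at 127 and 154 on the 2 Hemangioblast arrays, against 133 and 139 on the hCD4 arrays, which overlapped (log2 change 0.03, SE 0.27, adjusted p = 0.981). By 95450_at it was at 79.5 and 57.6 against 55 and 51.1 (log2 change 0.28, adjusted p = 0.782). By 93691_s_at it was at 19.7 and 29.6 against 32.2 and 9.27, near the added constant of 16 (log2 change 0.21, adjusted p = 0.887). Cdkn1c encodes p57, an inhibitor of cyclin-dependent kinases. Its values, 87.6 and 61.2 on the 2 Hemangioblast arrays, against 55.9 and 114 on the hCD4 arrays, overlapped (log2 change -0.11, SE 0.386, adjusted p = 0.946). The 2 hCD4 arrays differed 2.03-fold, and the interval of the change, from -1.0 to 0.78, was among the widest of the members.

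In all, 4 member probe sets lay higher and 5 lower on both Hemangioblast arrays than on either hCD4 array, and 5 overlapped. Over all probe sets, 24.8% lay higher and 19.7% lower in this way, or 44.4% in either direction. The changes were not equally well measured, with a median standard error of 0.27 over all probe sets. Among the members it ran from 0.141 for Mest to 0.468 for Plagl1 by 92501_s_at, whose Hemangioblast arrays differed 3.13-fold. For the 4 dim member probe sets, with a mean under 100, it was 0.332 (Grb10 by 95450_at) to 0.418 (Grb10 by 93691_s_at).

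Markers of other cell types moved between the groups as well. The summed intensity of 12 myeloid markers was 10496 and 10809 on the 2 Hemangioblast arrays, against 1224 and 1465 on the hCD4 arrays, with 10 of 12 called higher. For 8 erythroid markers the sums were 37557 and 40114 against 12958 and 13682, with 7 of 8 called higher. For 11 mesenchymal and fibroblast markers, which the feeder cells share, they were 2760 and 3079 against 2854 and 2311, with 2 of 11 higher (Acta2 and Col3a1). By its other probe sets, both dim, Col3a1 did not pass (adjusted p = 0.483 and 0.633). Tagln, of the same list, was lower on both Hemangioblast arrays, at 314 and 258 against 663 and 462 (log2 change -0.92, adjusted p = 0.0656). Postn, also of this list, was higher on both, at 143 and 217 against 51.1 and 75.5 (log2 change 1.30, adjusted p = 0.0751). Endoderm markers were at 606 and 704 against 874 and 807, with 0 of 10 called by limma at an adjusted p under 0.05 and 1 at an unadjusted p under 0.05, which 16.3% of all probe sets reached. Trophoblast markers were at 5100 and 2945 against 3540 and 3082, with 0 of 7 called by the brightest probe set of each and 2 at an unadjusted p under 0.05. Hand1, of this list, was called higher by its other probe set (log2 change 1.29, adjusted p = 0.0224) and had a change of 1.30 by its brightest (adjusted p = 0.0721). For 10 pluripotency markers the sums were 4696 and 4826 against 8083 and 6016, with 2 lower. Esrrb, the brightest of them, made up a large part of each sum, at 3343 and 3476 against 3165 and 3579 (log2 change 0.02). For 8 endothelial markers they were 4957 and 4234 against 4814 and 5698, with 1 higher and 1 lower. No summed list was at 0 on any array. Of single markers, Adgre1, Ptprc and Fcer1g (myeloid) were near 0 on at least 1 hCD4 array, Elf5 (trophoblast) was near 0 on both hCD4 arrays, and Hnf4a, Apoa4, Rbp4 and Apoa1 (endoderm) were near 0 on at least 1 array. The part of these cell types in the changes of Plagl1, Dlk1 and Peg3 was not tested.

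Imprinted genes often lie in clusters, so the nearest measured genes in genome order, up to 2 on each side, were examined for each member. The rule was set after the members' values were seen. A nearest measured gene need not lie in the same cluster. Between Peg3 and Zfp444 lay 17 annotated protein-coding genes and between Peg3 and Zfp28 10, against 0 between Peg3 and Usp29. Of the 32 neighbours, limma called 0 higher and 0 lower at an adjusted p under 0.05 (median log2 change 0.03). An unadjusted p under 0.05 was reached by 2 of them, Meg3 and Ins2, against 16.3% of all probe sets. Meg3, a maternally expressed non-coding RNA and the nearest measured gene after Dlk1, was at 473 and 606 on the 2 Hemangioblast arrays, against 974 and 765 on the hCD4 arrays. Its groups did not overlap, with Hemangioblast lower, where Dlk1 was higher (log2 change of Meg3 -0.67, SE 0.197, adjusted p = 0.113). Its other probe set had a change of -0.42 (adjusted p = 0.473). Beside Peg3, Usp29 was dim, at 76.8 and 56.5 against 95.2 and 67.8 (log2 change -0.24, adjusted p = 0.832). Beside Igf2 lies Ins2, an insulin gene imprinted in the yolk sac. By a family probe set Ins2 was dim, at 66.3 and 44.8 against 12.3 and 14.8 (log2 change 1.26, SE 0.353, adjusted p = 0.101). Its hCD4 values lay below the added constant of 16. By its other probe set Ins2 was at 7.54 and 6.8 against 15.4 and 1.98, below 16 on every array (log2 change -0.04, adjusted p = 0.986). The 4 neighbours of Plagl1 had log2 changes between -0.26 and 0.00, against 1.93 for Plagl1. The 4 imprinted neighbours of Cdkn1c, namely Tssc4, Kcnq1, Slc22a18 and Phlda2, had changes between -0.04 and 0.27, against -0.11 for Cdkn1c.

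**Figure D3:**
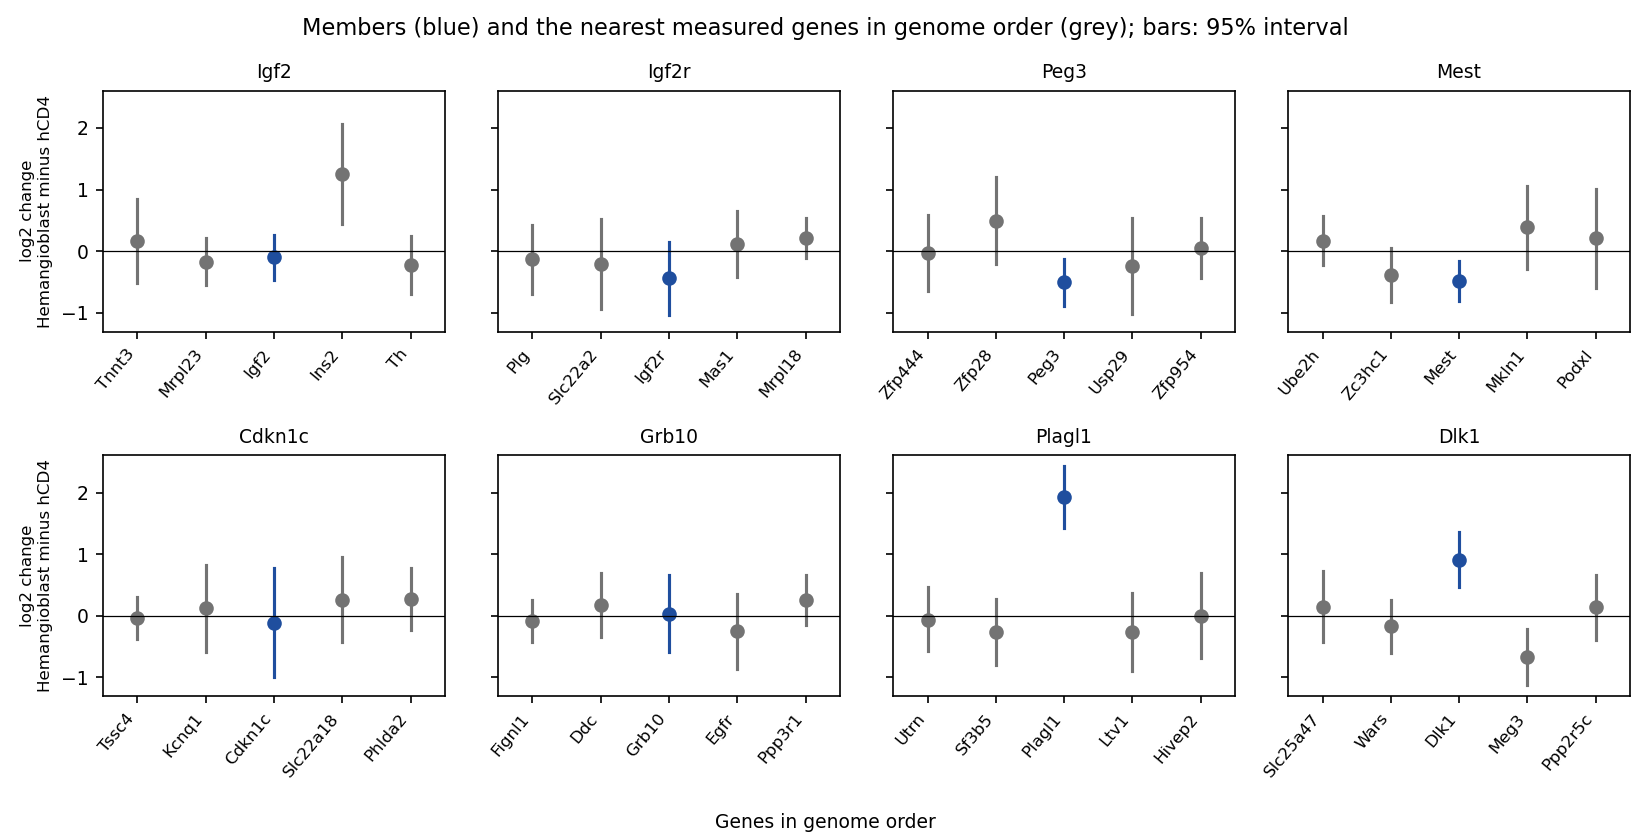
Log2 change, Hemangioblast minus hCD4, of each member (blue, probe set with the highest mean) and of its nearest measured genes in genome order (grey), with 95% intervals as bars. Plagl1 (1.93) and Dlk1 (0.91) stand above their own neighbours. Of all neighbours, the interval of Ins2 (1.26), dim and beside Igf2, lies above 0 and that of Meg3 (-0.67), beside Dlk1, below it.

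Other imprinted genes were read from 2 lists written from general knowledge, in which the imprint of some genes is known only from placenta or single tissues. Of 11 measured paternally expressed genes, 2 rose and 0 fell (median log2 change 0.16). The median over all genes was 0.02, with 3.43% of 8251 genes called higher and 1.95% lower (5.38% in all) when each gene is read from its brightest probe set. Peg10, a gene derived from a retrotransposon and needed for the placenta, was at 1597 and 1018 on the 2 Hemangioblast arrays, against 605 and 541 on the hCD4 arrays (log2 change 1.13, SE 0.221, adjusted p = 0.0266). Sgce, its neighbour, which encodes epsilon-sarcoglycan, was at 509 and 484 against 269 and 254 (log2 change 0.89, SE 0.187, adjusted p = 0.0371). Both genes were higher on each Hemangioblast array. The count for this list was 0 with arrays scaled to their medians, without Hemangioblast replicate 1 and without either hCD4 array, and 1 without Hemangioblast replicate 2. Nnat did not pass, at 303 and 304 against 516 and 367 (adjusted p = 0.313).

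Of 22 measured maternally expressed genes, 2 rose and 0 fell (median log2 change 0.15). Tspan32, a tetraspanin gene of blood cells, was at 1599 and 1574 on the 2 Hemangioblast arrays, against 157 and 311 on the hCD4 arrays (log2 change 2.75, SE 0.278, adjusted p = 0.00105). Pon2, which encodes a paraoxonase, was at 376 and 322 against 143 and 121 (log2 change 1.30, SE 0.236, adjusted p = 0.0198). Pon2 lies near Peg10 and Sgce, and it lost the call with any 1 array left out, which leaves 1 gene of this list. Dhcr7, a gene of cholesterol synthesis, did not pass, at 154 and 218 against 299 and 306 (adjusted p = 0.205).

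**Figure D4:**
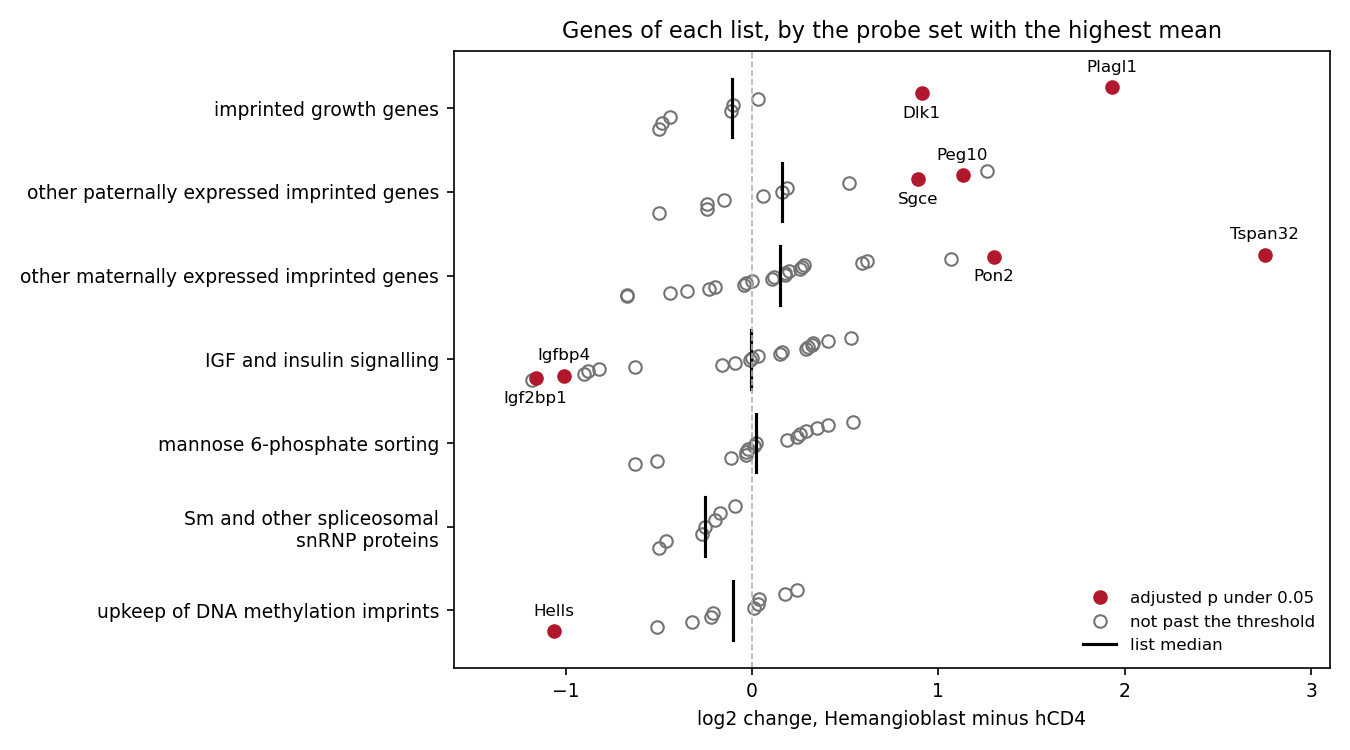
Log2 change, Hemangioblast minus hCD4, of each measured gene of 7 lists by its probe set with the highest mean; filled red dots passed an adjusted p of 0.05, open dots did not, and black bars are list medians. The imprinted growth genes had a median of -0.10, with Plagl1 and Dlk1 to the right.

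Genes that act with Igf2, Igf2r and Grb10 were read from a list of IGF and insulin signalling, in which, by the brightest probe set of each, 2 of 20 measured genes fell and 0 rose (median log2 change 0). Igf1, the growth factor related to Igf2, rose by its dimmer probe set, at 232 and 196 on the Hemangioblast arrays against 70 and 45.9 on the hCD4 arrays (log2 change 1.65, SE 0.308, adjusted p = 0.0222). By its brighter one it was at 479 and 525 against 385 and 363 (log2 change 0.41, SE 0.179, adjusted p = 0.308). Igf2bp1 encodes a protein that binds Igf2 and other messenger RNAs. It was at 618 and 590.3 on the 2 Hemangioblast arrays, against 1327 and 1411 on the hCD4 arrays, with a small spread in each group (log2 change -1.16, SE 0.15, adjusted p = 0.00389). Igfbp4, a secreted protein that binds IGFs, was at 965 and 867 against 2066 and 1661 (log2 change -1.01, SE 0.164, adjusted p = 0.0131). By another probe set Igfbp4 had a change of -1.59 (adjusted p = 0.00213), while the dim one had 0.06 (adjusted p = 0.974). Igfbp2, another binding protein, was at 276 and 222 against 829 and 409, with the hCD4 arrays far apart (adjusted p = 0.0837). Pik3ca, the catalytic subunit of a lipid kinase below these receptors, was at 262 and 337 against 639 and 491 (adjusted p = 0.0655). By its dimmer probe set Pik3ca overlapped, at 136 and 155 against 157 and 110.4 (log2 change 0.12, adjusted p = 0.91). Without hCD4 replicate 1 the change was -1.2 for Igf2bp1, -0.85 for Igfbp4 and -0.69 for Igfbp2. Without hCD4 replicate 2 these changes were -1.11, -1.16 and -1.68. Which genes of this list passed depended on the hCD4 array left out. With a variance model that ignores intensity neither Igf2bp1 nor Igfbp4 passed (limma adjusted p = 0.0657 and 0.125). The receptor gene Igf1r was at 591 and 568 against 614 and 543, which overlapped (log2 change 0, SE 0.168, adjusted p = 0.998).

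In the list of mannose 6-phosphate sorting, which serves the lysosomal role of Igf2r, limma called 0 of 15 measured genes, and 2 had an unadjusted p under 0.05, against 16.3% of all probe sets (median log2 change 0.02). The smallest adjusted p-values were those of the clathrin adaptor genes Ap1s1 (log2 change 0.54, adjusted p = 0.149) and Gga2 (-0.51, adjusted p = 0.151), followed by the sorting nexin gene Snx2 (0.41, adjusted p = 0.33) and Ap1m1 (0.35, adjusted p = 0.337). Snrpn encodes SmN, a close relative of the spliceosomal SmB protein. Among 7 measured genes of spliceosomal particles limma called 0, and 0 had an unadjusted p under 0.05. Their median log2 change was -0.25. Snrpb, which encodes SmB, was at 7053 and 6024 against 6850.5 and 6988 (log2 change -0.09, adjusted p = 0.863). Snrpa1 had a change of -0.50 (adjusted p = 0.33), which was -0.84 without Hemangioblast replicate 1 (0.0379) and -0.16 without Hemangioblast replicate 2 (0.79). The change was -0.46 for Snrpd3 (adjusted p = 0.419), -0.27 for Snrpg (0.577) and -0.25 for Snrpc (0.615). With an array left out it ran from -0.78 to -0.13 for Snrpd3, -0.54 to 0.0 for Snrpg and -0.5 to 0.0 for Snrpc. The summed intensity of the 7 genes was 16055 and 12850 on the 2 Hemangioblast arrays, against 16091 and 16676 on the hCD4 arrays.

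Of 10 measured genes for the upkeep of methylation imprints, 1 fell and 0 rose (median log2 change -0.10). Hells, a chromatin remodeller needed for normal DNA methylation, was at 323 and 511 on the 2 Hemangioblast arrays, against 856 and 876 on the hCD4 arrays (log2 change -1.06, SE 0.224, adjusted p = 0.0373). Without Hemangioblast replicate 1 or either hCD4 array the count was 0. Trim28, a corepressor that protects imprints, was at 3977 and 3931 against 5781 and 5497, apart but not past the threshold (log2 change -0.51, SE 0.134, adjusted p = 0.0815). Ctcf, whose protein insulates Igf2 from enhancers on the maternal copy, was at 352 and 353 against 517 and 382 (adjusted p = 0.534). Uhrf1, which guides methylation to replicated DNA, was at 1145 and 1144 against 1502 and 1186 (adjusted p = 0.611).

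Genes with a pattern over the 4 arrays near that of Igf2 were sought by the Euclidean distance of centred log2 values. The search covered 6254 genes with a mean scaled intensity of at least 100, members left out. The nearest were Slc6a13 and Cwf19l1 (distance 0.023 each), Zdhhc16 (0.027), Ranbp3 (0.036) and Rbpj (0.038). Their log2 changes lay between -0.11 and -0.08, and none passed. The measure rests on 4 arrays and describes these arrays alone.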

How the data were processed

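Per the labels' protocols, RNA came from TRIzol extraction, and 20 ug of it was converted to biotin-labelled target with no amplification step. The deposited values are the authors' linear intensity of each probe set. For their software, background correction and scaling, nothing was found in the labels or headers. All 4 value columns were used. Of 12488 probe sets, 12422 entered the tests, without 66 array controls. Scaling set every array to the mean of the arrays' trimmed means (2% at each end; factors 0.939 and 1.05 for Hemangioblast, 0.936 and 1.09 for hCD4), and 16 was added before taking log2. Median intensity before scaling was 165 to 197.

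The group comparison used limma (version 3.58.1, R version 4.3.3; lmFit, then eBayes with its variance trended on intensity; 2 residual and 6.18 prior degrees of freedom), two-sided, with Benjamini-Hochberg adjustment over all probe sets. The fit was tested on simulated data. The number of arrays limits the precision, as does dim signal. Correlations across probe sets were 0.961 within Hemangioblast, 0.963 within hCD4 and 0.921 to 0.94 between groups. The 3' to 5' ratio was 1.33 and 1.03 in Hemangioblast and 1.13 and 1.03 in hCD4 for Gapdh, and 1.63 and 1.16 in Hemangioblast and 1.36 and 1.12 in hCD4 for actin, with Hemangioblast replicate 1 highest on both. The results without that array are among the alternatives.

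Probe sets were named from the platform annotation (10833 with 1 symbol, 396 with several, 1193 with none), with 10817 checked by gene identifier and 0 symbols changed. A list gene is represented by its probe set with the highest mean. Named were every member by every probe set, up to 4 genes per list with the smallest adjusted p, the 5 genes nearest to Igf2, and Kdr, Tal1 and Pou5f1, and the neighbours of members, Usp29, Igf1, Igf1r, Snrpb and single cell type markers outside that rule, after their values were seen. The members and lists were chosen with earlier results of these data known. Promoter windows matched 8 of the 10 genes, 7 of them measured here. Same-numbered arrays of the 2 groups deviated with a correlation of -0.0078 across probe sets. Alternatives were other added constants, scalings and variance models, a filter on dim probe sets, the replicate number as a block, and each array left out. Plots were made in Python 3.11.15 using matplotlib 3.10.9.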

Additional observations from a re-analysis of the deposited data

How the results depend on the processing

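Plagl1 by 92502_at stayed past the threshold in all 12 other settings with its probe sets kept apart, with log2 changes of 1.71 to 2.15, and was at 1.62 (adjusted p = 0.0358) with both probe sets averaged, an alternative chosen after seeing the data. Peg3 by 101451_at kept its direction in all 12 and lost the call in 4: without scaling (adjusted p = 0.0643), without an intensity trend (0.129) and without either hCD4 array (0.118 and 0.108). Dlk1 kept its direction in all 12 and lost the call in 7. Against 3 called member probe sets, 1 was called without scaling and 1 without an intensity trend, and 1 to 4 with an array left out. Over all probe sets, 556 were called (362 higher, 194 lower), 272 without scaling (222 and 50), 220 without an intensity trend (188 and 32) and 853 with dim probe sets left out (497 and 356). Leaving out each array gave 219 to 517 calls, 170 to 283 higher and 42 to 234 lower. Called paternally expressed genes numbered 0 with scaling to medians, without scaling and without a trend, and 0 to 1 with an array left out. Called maternally expressed genes numbered 1 without scaling, without a trend and with any array left out. Called genes of IGF signalling numbered 1 without scaling, 0 without a trend and 4 without dim probe sets, and differed with the hCD4 array left out. Called genes of imprint upkeep numbered 0 without scaling or a trend, 2 without dim probe sets and 0 to 1 with an array left out, and those of spliceosomal particles 0 to 1. The cause of these differences was not tested.

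Uncalled changes turned direction for Igf2 by 98623_g_at (-0.25 to 0.05 with an array left out), Igf2 by 98622_at (-0.60 to 0.42), Cdkn1c (-0.54 to 0.32) and Grb10 by 93691_s_at (-0.25 to 0.68). Grb10 by 93690_at was at -0.04 with scaling to medians, -0.08 with quantile normalization and -0.09 to 0.16 with an array left out.

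With the replicate number as a block, 710 probe sets were called (432 higher, 278 lower) and 3 member probe sets. Same-numbered arrays share only a number (deviation correlation -0.0078). Dim probe sets, 4 of the 14, limit what could be detected.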
